A study of Mus musculus with 14 samples.

Results

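The genes described here are 49 genes that encode the machinery of DNA replication, from origin recognition and licensing through the helicase, the clamp, the polymerases and ligation to the enzymes that supply deoxynucleotides. They were found by symbol in a table of read counts from mouse spleen. All 49 were among its 22116 named genes, and all 49 had enough counts to be among the 15159 genes tested. RNA of whole spleens came from 14 wild-type female BALB/c mice of 6 to 8 weeks, in a study of skin models of psoriasis-like inflammation. The 3 control mice had petrolatum, the vehicle, on the back and ears, although the series' design text calls the controls untreated. Imiquimod activates Toll-like receptor 7 and was applied as a 5% cream each day for 5 days, to the back of 4 mice (imiquimod-dorsal) and to the ear of 4 others (imiquimod-ear). In the last 3 mice (IL-23-ear), the cytokine IL-23, on which IL-17-producing T cells depend, was injected into the ear skin at 1 µg per ear, with 4 injections over 7 days. Vehicle injections are not among the groups, so the IL-23-ear mice differ from the controls in the injections as well as in the cytokine.

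A cell copies its genome once per division. The origin recognition complex, with Cdc6 and Cdt1, loads the MCM2-7 helicase onto DNA in G1, and Cdc45 and GINS activate that helicase in S phase. Primase and polymerase alpha start each strand, polymerases epsilon and delta extend it on the PCNA clamp, and Fen1 and Lig1 join the lagging strand. Many genes of this machinery are transcribed under E2F factors as cells enter the cycle, so their mRNAs are low in resting lymphocytes and high in dividing cells. In the mouse spleen such cells include germinal center B cells, plasmablasts and, since the red pulp of this species makes blood cells throughout life, erythroid and myeloid precursors.

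Each mouse gave 1 library of 28354674 to 40289411 counts over named genes, with 15862 to 16375 genes detected, and no member was near the detection floor of 3 counts (0.0754 to 0.0976 CPM per library). CPM is the count scaled to a common library size with edgeR's TMM factors. Spleen markers were measured in all groups, among them Cd79a (B cells) at means of 675 to 830 CPM and Vcam1 at 419 to 547 CPM. Whole tissue was sequenced, so more cells of a type and more RNA per cell cannot be told apart, and a change is relative to the other RNA of the library. In what follows, libraries are listed by replicate number: controls 2, 4 and 5, imiquimod-dorsal 2, 3, 4 and 5, imiquimod-ear 1, 3, 4 and 5, and IL-23-ear 1, 2 and 3.

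A pair of libraries stood apart from their groups in these genes. Summed over the 49 genes, the controls were at 2076, 2348 and 3313 CPM and the IL-23-ear libraries at 2291, 2735 and 2472 CPM. The imiquimod-dorsal libraries were at 9470, 11120, 9909 and 9252 CPM, and the imiquimod-ear libraries at 5045, 5581, 4734 and 2817 CPM. Control 5 was thus the highest control and imiquimod-ear 5 the lowest imiquimod-ear library, below control 5. Control 5 was the highest control for 46 of the 49 genes, against 38.4% of all tested genes. Imiquimod-ear 5 was the lowest of its group for 49 of 49, against 35.2% of all tested genes, and lay within the range of the controls for 42 (48.4% of all tested genes). The other 3 imiquimod-ear libraries were above every control for 46 genes (25.9% of all tested genes), the exceptions being Orc5, Cdt1 and Pold1. Of 7 erythroblast markers, control 5 was the highest control for 6. The exception, Alas2, was at 407, 209 and 143 CPM, and the sum of the 7 was 625.4, 457 and 519.3 CPM. The 6 plasma cell markers summed to 2660 CPM in imiquimod-ear 5, against 2652 to 3804 CPM in imiquimod-ear 1, 3 and 4 and 969.9 to 1255 CPM in the controls. Jchain makes up most of this sum, with means of 2710 CPM in the imiquimod-ear group and 983 CPM in the controls.

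**Figure D1:**
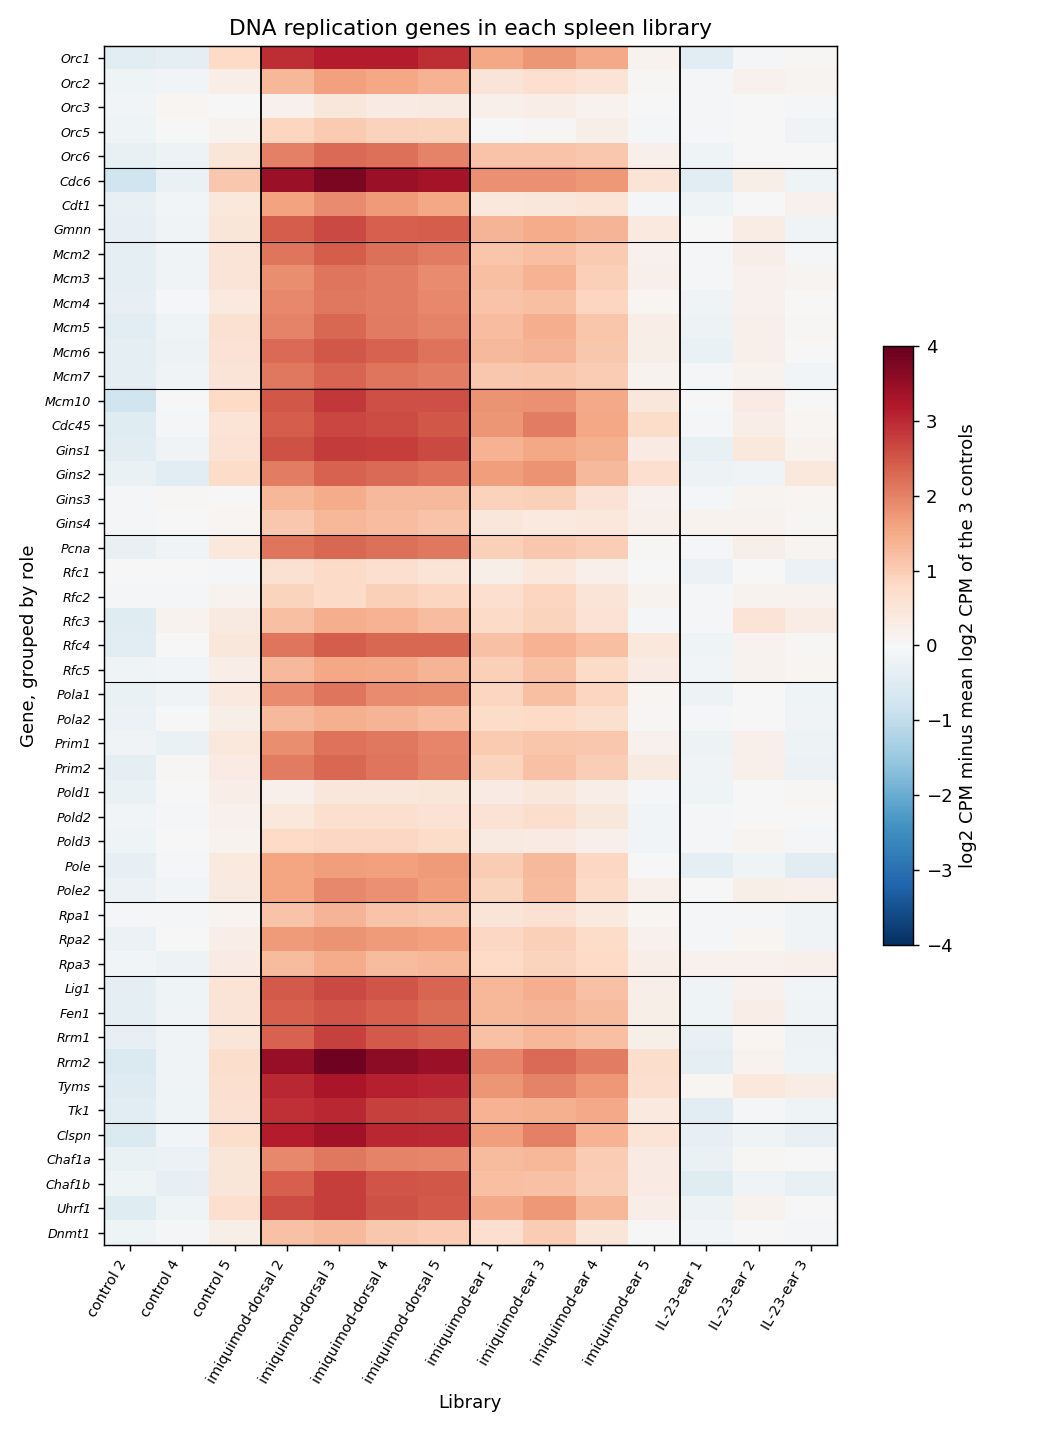
Heat map of the 49 genes (rows, grouped by role) in the 14 libraries (columns), coloured by log2 CPM minus the mean log2 CPM of the 3 controls. The imiquimod-dorsal columns are high for most genes, with little change in genes such as Orc3 and Pold1, and imiquimod-ear 1, 3 and 4 are mostly intermediate. The imiquimod-ear 5 column resembles control 5, whose sum of 3313 CPM exceeded its 2817 CPM.

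Dorsal imiquimod was compared with vehicle to ask what treatment of the back skin changes in the spleen. Replication genes rose across every step of the process: 49 of 49 were higher, while 32.3% of all tested genes were called higher. Their median log2 fold change was 2.00, or 3.99-fold, against 0.00 over all tested genes, and 42 of the 49 rose at least 2-fold (10.6% of all tested genes). The groups did not overlap for 48 genes, against 33% of all tested genes, and Pold1 was the exception. Each imiquimod-dorsal library was above every other library of the study for 44 of the 49 (20.4% of all tested genes). The 5 others were Orc3, Rfc2, Pold1, Pold2 and Dnmt1. The median coefficient of variation of the 49 genes was 8.41% in this group and 28.6% in the controls, against 10.9% and 10.8% over all genes. The count stayed at 46 to 49 under every alternative run, where Orc3, Pold1 or Pold2 lost the call. Scaling by library totals lowered the median of all tested genes to -0.33 and that of the 49 to 1.66, and left 2749 of 9991 called genes higher, against 4890 of 9071 with TMM. Upper-quartile scaling gave -0.23 for all genes and 1.77 for the 49, with 3346 of 9648 called genes higher.

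Subunits of the origin recognition complex did not move alike. Orc1, its cell-cycle-regulated largest subunit, read 4.78, 4.99 and 11.2 CPM in the controls and 49.6, 57.4, 56.2 and 49.5 CPM after dorsal imiquimod, so it rose by 2.92 ± 0.38 in log2 units (± is the SE throughout; adjusted p = 3.76e-05). Orc6 rose by 2.07 ± 0.23, and exons of Vps35 on the other strand cover 12.2% of its transcript. Orc5 went from 26.6, 30.3 and 33.2 CPM to 54.3, 62.2, 56.1 and 54.9 CPM (0.92 ± 0.09, adjusted p = 3.22e-06). Orc2 (chromosome 1, 58497840 to 58544270, minus strand) went from 37.9, 39.6 and 50.9 CPM to 107, 133, 125 and 112 CPM (log2 fold change 1.48 ± 0.15, adjusted p = 2.69e-06). Every Orc2 value after dorsal imiquimod was above every control, but 26.5% of its transcript overlaps exons of Nif3l1 on the other strand, whose reads these unstranded libraries cannot separate. Orc3 (chromosome 4, 34567214 to 34614957, minus strand), a core subunit, had the smallest change of the 49 genes. It read 40.7, 46.2 and 44.2 CPM in the controls and 49.6, 59.4, 54.3 and 56.5 CPM after dorsal imiquimod (log2 fold change 0.33 ± 0.08, adjusted p = 0.00256). That call depended on the scaling, with -0.01 (adjusted p = 0.94) by library totals and 0.10 (adjusted p = 0.22) by the upper quartile. Orc3 shares 21.5% of its transcript with Akirin2 and Rars2 on the other strand. Orc4, the remaining subunit, is not among the 49 and was at 0.09 ± 0.07 (adjusted p = 0.262).

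Because the subunits changed unequally, their relative levels changed too. Per kb of transcript, the controls held the subunit mRNAs at 2.09 CPM per kb for Orc1 up to 19.0 for Orc3, a range of 9.09-fold. After dorsal imiquimod the range was 3.22-fold, from 15.9 CPM per kb for Orc1 to 51.2 for Orc6. GINS was similar, with a range of 7.71-fold in the controls and 4.6-fold after dorsal imiquimod. Its lowest subunit in the controls was Gins2 (2.58 CPM per kb), and after dorsal imiquimod it was Gins3. Gse1 exons on the other strand cover 70.7% of the Gins2 transcript, so the control range of GINS rests on an uncertain level. In both complexes the subunits lowest in the controls, Orc1, Gins1, Gins2 and Gins3, reached at least 9.92 CPM per kb after dorsal imiquimod. These ranges are descriptions of group means, with no test of their own.

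**Figure D2:**
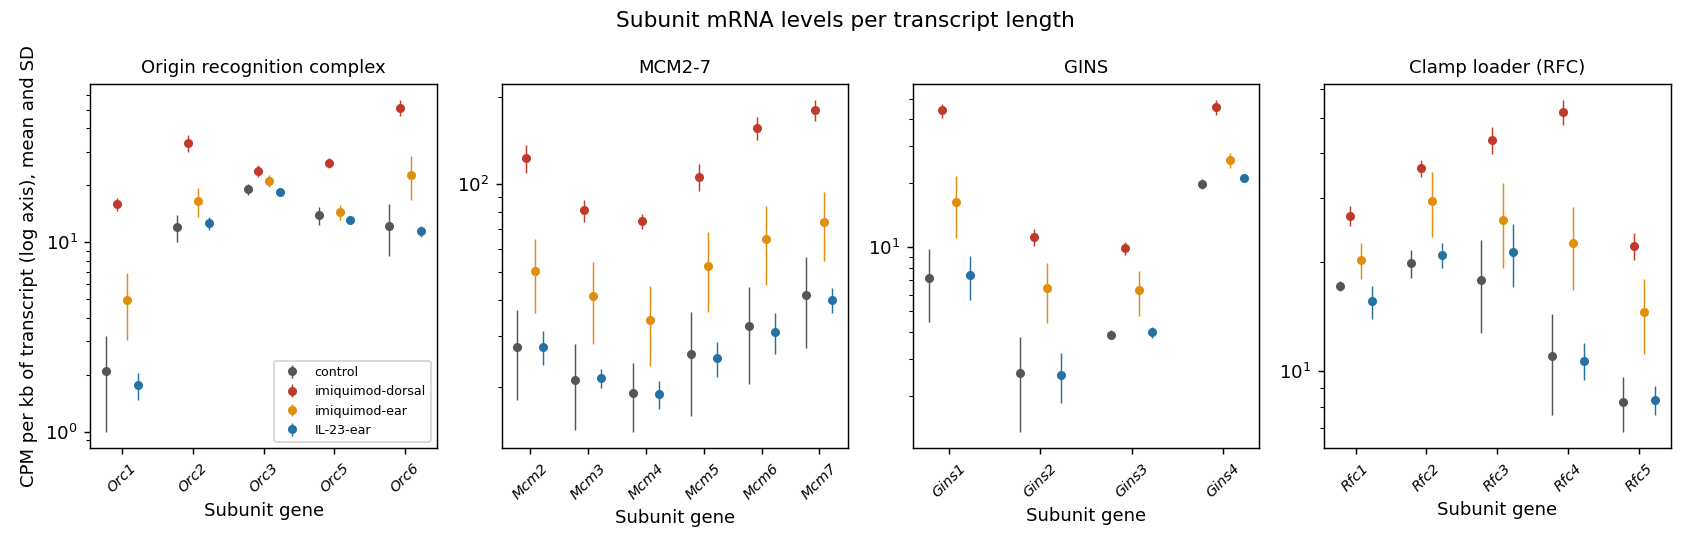
Level of each subunit mRNA (CPM per kb of canonical transcript, log axis, mean and SD over 3 or 4 libraries) of the origin recognition complex, MCM2-7, GINS and the clamp loader in the 4 groups. The spread between the Orc subunits shown, without Orc4, narrowed from 9.09-fold in the controls to 3.22-fold after dorsal imiquimod. That of MCM2-7 was 2.18-fold and 2.41-fold.

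Licensing factors rose strongly. Cdc6 (chromosome 11, 98798507 to 98814766, plus strand), the ATPase that loads the helicase at origins, read 10.6, 15.2 and 38.8 CPM in the controls and 200, 253, 201 and 187 CPM after dorsal imiquimod. Its log2 fold change of 3.28 ± 0.45 (adjusted p = 7.36e-05) was the second largest of the 49, and control 5 was the highest control. Cdt1, the partner of Cdc6 in loading, went from 42.5, 48.4 and 71.2 CPM to 161, 194, 170 and 155 CPM (log2 fold change 1.66 ± 0.18, adjusted p = 6.75e-06). Gmnn encodes geminin, the inhibitor of Cdt1 that prevents a further round of licensing, and rose by 2.42 ± 0.26.

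The 6 MCM2-7 genes, whose products form one hexamer, moved within a narrow band of 1.94 (Mcm3) to 2.26 (Mcm6) on the log2 scale. Mcm7 (chromosome 5, 138162844 to 138170684, minus strand) had the highest mean CPM of the 6. It read 90.4, 109 and 172 CPM in the controls and 516, 597, 527 and 497 CPM after dorsal imiquimod (log2 fold change 2.11 ± 0.25, adjusted p = 1.46e-05). The groups were far apart, with the lowest imiquimod-dorsal library well above control 5. Exons of Ap4m1 and Cops6 on the other strand cover 23.3% of the Mcm7 transcript. Per kb of transcript the hexamer's mRNAs kept a similar spread in every group, from 2.12-fold in IL-23-ear to 2.41-fold after dorsal imiquimod, with Mcm4 lowest and Mcm7 highest in each.

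Since the MCM2-7 genes are classical E2F targets, the promoters of the 49 genes were searched for E2F-like letters, from 250 bases before to 30 bases from the start of each gene's canonical transcript in GRCm39. The 4 forms searched, on both strands, were TTTCCCGC, TTTGGCGC, TTTCGCGC and TTTGCCGC. At least 1 of them was in 10 of 49 promoters (20.4%), against 3.3% of the 14754 promoters of tested genes. The 10 genes were Orc1, Orc3, Gmnn, Mcm3, Mcm4, Mcm5, Mcm6, Gins1, Pola1 and Pole2. CCAAT was in 27 of 49 (55.1%, against 38.1%), and the CHR letters TTTGAA or TTCGAA were in 4 (8.16%, against 15.4%). The median log2 fold change after dorsal imiquimod was 1.99 in genes with the E2F letters and 2.00 in genes without, and after ear imiquimod it was 0.97 and 0.83. The stretches below show MCM promoters that hold the letters, the site in Orc3, which has them and had the smallest change, and the bases before Rrm2, which lacks them and had the largest. Capitals mark the searched E2F letters, and where a match on each strand overlaps, as in Mcm5 and Mcm6, the joint run is in capitals. A match is a description of the letters, not of binding.
Mcm6, chr1:128287517-128287606, minus strand: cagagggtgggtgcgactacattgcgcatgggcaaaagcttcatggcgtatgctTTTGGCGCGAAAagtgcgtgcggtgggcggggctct
Mcm5, chr8:75835960-75836049, plus strand: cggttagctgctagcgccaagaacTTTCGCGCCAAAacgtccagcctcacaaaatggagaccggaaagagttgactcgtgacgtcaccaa
Mcm4, chr16:15455285-15455374, minus strand: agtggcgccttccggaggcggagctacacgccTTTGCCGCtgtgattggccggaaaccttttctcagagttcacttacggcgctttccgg
Orc3, chr4:34614966-34614995, minus strand: gccatgcctcccTTTCCCGCacgccccgcc
Rrm2, chr12:24757721-24757810, plus strand: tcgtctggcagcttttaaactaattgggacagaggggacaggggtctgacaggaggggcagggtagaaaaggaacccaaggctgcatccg

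Factors that activate the helicase rose by 1.20 (Gins4) to 2.62 (Gins1). Mcm10, which helps the loaded helicase to fire, read 8.52, 14.6 and 25.9 CPM in the controls and 82.8, 105, 87.4 and 88.1 CPM after dorsal imiquimod (log2 fold change 2.47 ± 0.38, adjusted p = 0.00013). Cdc45, a permanent part of the moving helicase, went from 10.0, 13.5 and 20.3 CPM to 74.2, 88.7, 85.5 and 77.5 CPM (log2 fold change 2.48 ± 0.29, adjusted p = 1.66e-05). Both genes had no overlap between the groups. Exons of Ufd1 on the other strand cover 14.9% of the Cdc45 transcript. Gins2 rose by 2.11 ± 0.32, but Gse1 exons on the other strand cover 70.7% of its transcript.

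At the fork, mRNA of the clamp rose more than that of most of its loader subunits. Pcna (chromosome 2, 132091082 to 132095234, minus strand), the sliding clamp, had the highest mean CPM of the 49 genes, although reads of its pseudogenes Pcna-ps1 and Pcna-ps2 may be counted in it. It read 166, 187 and 274 CPM in the controls and 896, 1010, 940 and 885 CPM after dorsal imiquimod (log2 fold change 2.16 ± 0.23, adjusted p = 7.4e-06). The loader subunits ranged from 0.64 (Rfc1, the large subunit) to 2.24 (Rfc4). Rfc2 (0.87), Rfc4 and Rfc5 (1.43) share 34.2%, 19.8% and 60.5% of their transcripts with Lat2, Eif4a2 and Wsb2. All subunit mRNAs of the single-strand binding protein RPA rose, with Rpa1, Rpa2 and Rpa3 at 1.17, 1.69 and 1.32. Rpa1 was at 143, 144 and 159 CPM in the controls and at 327, 378, 325 and 314 CPM after dorsal imiquimod (SE 0.11, adjusted p = 2.16e-06).

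Among the polymerase genes of the 49, the 3 subunits of polymerase delta had the smallest rises. Pold1 (chromosome 7, 44182168 to 44198349, minus strand), its catalytic subunit, read 70.2, 84.3 and 103 CPM in the controls and 97.4, 115, 115 and 119 CPM after dorsal imiquimod. Its log2 fold change of 0.38 ± 0.13 (adjusted p = 0.0226) lost the call without control 2 (0.20, adjusted p = 0.209), control 4 (0.31, adjusted p = 0.106) or imiquimod-dorsal 5 (0.35, adjusted p = 0.0544), and with upper-quartile (0.16, adjusted p = 0.264) or library-total scaling (0.05, adjusted p = 0.757). Pold2, an accessory subunit, went from 25.6, 26.8 and 31.7 CPM to 37.1, 44.6, 44.1 and 41.7 CPM (log2 fold change 0.58 ± 0.15, adjusted p = 0.00478). It lost the call by library totals (0.24, adjusted p = 0.132). Pold3 rose by 0.80 ± 0.11, from 45.5, 51.6 and 56.1 CPM to 89.3, 90.7, 90.3 and 84.8 CPM (adjusted p = 2.66e-05). By contrast, Pola1 and Pola2 of polymerase alpha rose by 1.92 and 1.32, and its primase subunits Prim1 and Prim2 by 2.00 and 2.11. Pole and Pole2 of polymerase epsilon rose by 1.61 and 1.74, and Pole2 shares 14.4% of its transcript with Gm49384 on the same strand. Of the accessory subunits outside the 49, Pole3 rose by 1.63 ± 0.18, Pole4 by 0.21 ± 0.08 and Pold4 by 0.60 ± 0.08, so a small rise was not limited to polymerase delta. Per kb of transcript, Pold1 was at 24.3 CPM per kb in the controls, above Pola1 (4.58) and Pole (2.81), the catalytic subunits of the other polymerases. After dorsal imiquimod the same 3 genes were at 31.7, 17.3 and 8.58 CPM per kb. Lig1, which seals Okazaki fragments, went from 49.2, 57.6 and 93.6 CPM to 352, 398, 364 and 324 CPM (2.43 ± 0.28, adjusted p = 1.45e-05). Fen1, the nuclease that trims their flaps, rose by 2.34 ± 0.27.

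The enzymes of deoxynucleotide supply had the highest median of the 10 role groups, at 2.90. Rrm2 (chromosome 12, 24757811 to 24764145, plus strand), the S phase subunit of ribonucleotide reductase, read 38.2, 51.9 and 92.8 CPM in the controls. After dorsal imiquimod it read 637, 850, 682 and 622 CPM (log2 fold change 3.52 ± 0.40, adjusted p = 1.48e-05) and 11.4-fold, the largest of the 49. Rrm1, the subunit that binds it and is known to be more stable through the cycle, rose by 2.45 ± 0.27. Per kb of transcript, Rrm2 and Rrm1 were close in the controls, at 23.3 and 20 CPM per kb, and stood at 266 and 109 after dorsal imiquimod. Tyms (chromosome 5, 30263198 to 30278633, minus strand), thymidylate synthase, went from 11.1, 14.5 and 25 CPM to 130, 153, 138 and 132 CPM (log2 fold change 3.03 ± 0.32, adjusted p = 8.88e-06), with a pseudogene, Tyms-ps, that could take or lend reads. Tk1, the S phase thymidine kinase, rose by 2.78 ± 0.30.

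Genes of the checkpoint and of chromatin behind the fork rose by 1.14 (Dnmt1) to 3.03 (Clspn). Clspn, the checkpoint mediator claspin, went from 9.38, 13.1 and 22.7 CPM to 123, 144, 114 and 112 CPM. Chaf1a and Chaf1b, subunits of the chromatin assembly factor CAF-1, rose by 1.94 and 2.50, and Ubxn6 exons cover 50% of the Chaf1a transcript. Uhrf1, which brings the maintenance methyltransferase to new DNA, rose by 2.51 ± 0.34. Dnmt1, that methyltransferase, was at 139, 149 and 182 CPM in the controls and at 352, 381, 329 and 317 CPM after dorsal imiquimod, a smaller log2 fold change of 1.14 ± 0.19 (adjusted p = 0.000159).

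**Figure D3:**
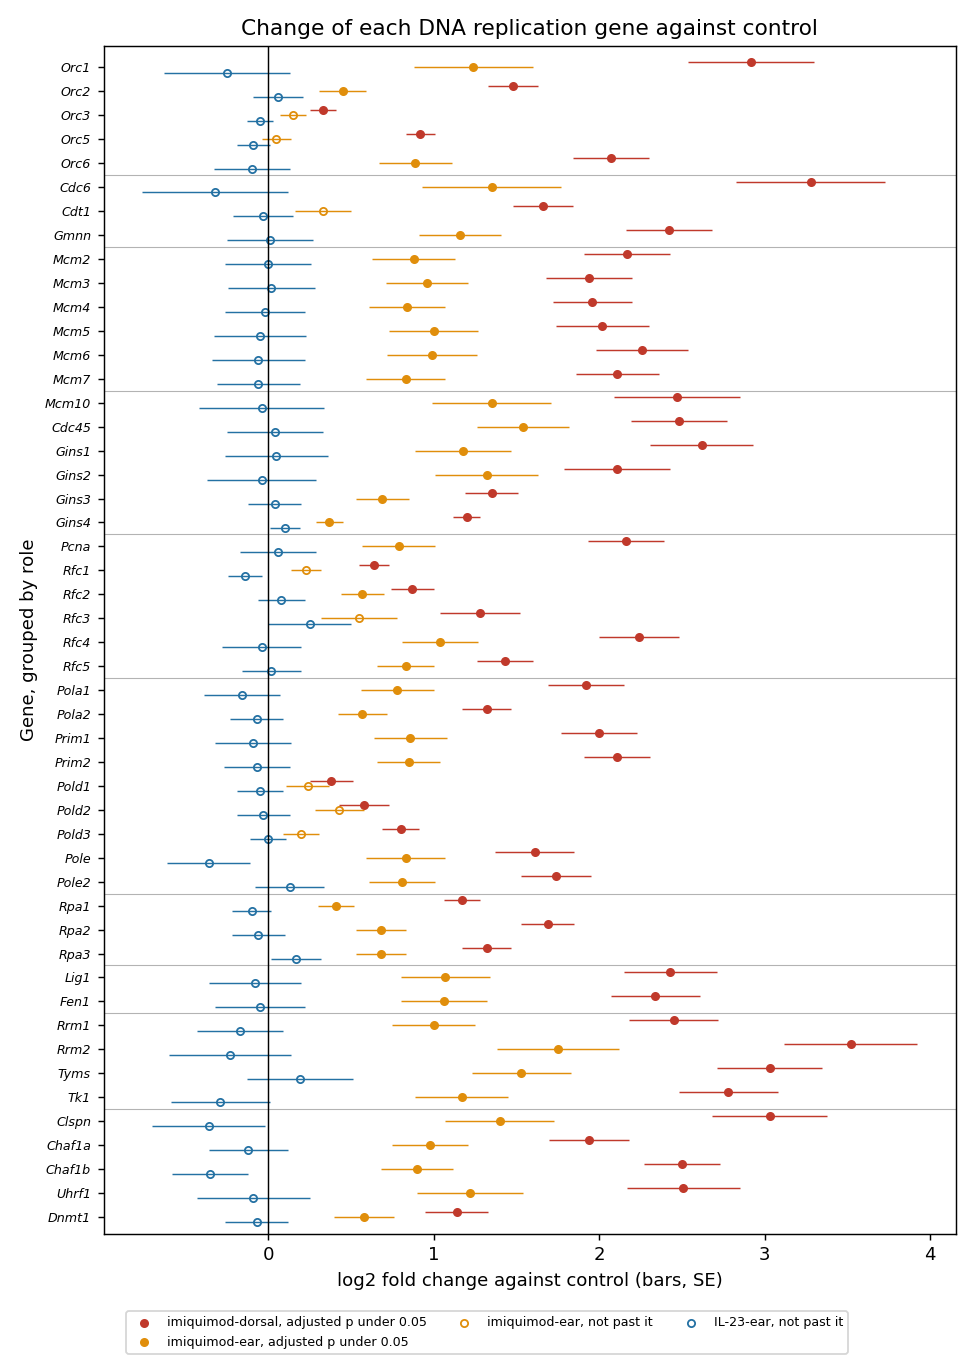
Log2 fold change of each of the 49 genes against control (points, with SE bars), for the 3 treatments; filled points passed an adjusted p of 0.05 and open points did not. Dorsal imiquimod changes span 0.33 to 3.52, ear imiquimod changes 0.05 to 1.75, and the IL-23 points are all open and lie between -0.36 and 0.25.

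Genes of the same pathway outside the 49 moved with them. Of 31 other replication genes, 27 rose after dorsal imiquimod, none fell and 4 did not pass, with a median of 1.49. The largest were Asf1b, a histone chaperone (2.73 ± 0.28), Top2a, the topoisomerase that untangles daughter chromosomes (2.63 ± 0.32), and Dscc1 of the cohesion clamp loader (2.47 ± 0.25). The smallest were Mcmbp (0.00 ± 0.08), which binds MCM proteins, Mcm9 (0.01 ± 0.09) and Orc4 (0.09 ± 0.07). Of 25 other nucleotide supply genes, 16 rose, 4 fell and 5 did not pass, with a median of 0.82. Among those that rose was Dut, the dUTPase (1.99 ± 0.26). The 4 that fell were Samhd1, which degrades deoxynucleotides (-1.15 ± 0.12), Tk2, the mitochondrial thymidine kinase (-0.75 ± 0.12), Rrm2b, the ribonucleotide reductase subunit of resting cells (-0.60 ± 0.10), and Impdh1, of guanine nucleotide synthesis (-0.53 ± 0.08). Samhd1 read 697, 988 and 814 CPM in the controls and 396, 366, 325 and 410 CPM after dorsal imiquimod, with no overlap. Over all 15159 tested genes, 4890 (32.3%) were called higher, of 9071 called in either direction. The 4 falls are thus not read as a trait of the nucleotide supply list. These lists were chosen with earlier results of the data known, so their counts are descriptions.

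Markers of several cell types moved with the rise. All 7 erythroblast markers rose after dorsal imiquimod, and their sum was 4668 to 7227 CPM against 457 to 625.4 CPM in the controls. All 5 neutrophil progenitor markers rose too, with sums of 280.6 to 410.1 CPM against 12.22 to 30.64 CPM. None of the markers in these lists was at 0 in the controls, where Klf1 (erythroblasts) was at 10.3, 15 and 35.3 CPM and Elane (neutrophil progenitors) was at 3.92, 1.34 and 4.48 CPM. Of 6 germinal center B cell markers 1 rose and 3 fell, with sums of 28.79 to 41.18 CPM against 39.42 to 49.6 CPM. Of 6 plasma cell markers 1 rose (Fkbp11, 0.88 ± 0.23), with sums of 796.1 to 1289 CPM against 969.9 to 1255 CPM. All 5 T cell markers fell, with sums of 124.7 to 157.2 CPM against 469.8 to 666.2 CPM. Of 5 B cell markers 2 fell, of 4 stem and progenitor markers 1 rose and 2 fell, and of 8 spleen markers 3 fell. Over all 15159 tested genes, 32.3% were called higher, and 9071 were called in either direction. The mixed or partial counts of these short lists are thus not read as changes of those cell types. The part of these cell types in the rise of the replication genes was not tested.

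Ear imiquimod was compared with vehicle to ask whether a small treated site changes the same genes. Replication genes rose again, but less: 41 of the 49 were called higher (14.3% of all tested genes) and none lower, with a median log2 fold change of 0.85, or 1.8-fold, against 0.02 over all tested genes. The largest were Rrm2 (1.75), Cdc45 (1.54) and Tyms (1.53), and 17 rose at least 2-fold (3.29% of all tested genes). The 8 that did not pass were Orc3, Orc5, Cdt1, Rfc1, Rfc3, Pold1, Pold2 and Pold3. The groups did not overlap for 7 genes (13.5% of all tested genes), since imiquimod-ear 5 lay among the controls for the other 42.

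The count depended on which libraries entered the fit. It was 8 without control 2, 7 without control 4, 23 without imiquimod-ear 1 and 21 without imiquimod-ear 3, and 4 when only these groups entered the fit. Calls over all genes fell in the same fits, from 3219 to 1389, 1066, 1904, 1975 and 1126. Without control 5 it was 42 and without imiquimod-ear 5 it was 45. With both of those left out, a choice made after their values were seen that widens the difference by construction, it was 46, with a median of 1.24. The median itself stayed between 0.66 and 1.07 whichever single library was left out. With all libraries, the log2 fold changes of all 49 genes were above 0. By DESeq2 the count was 42 and by limma-voom 39.

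Rrm2 read 222, 276, 233 and 92.0 CPM after ear imiquimod, against 38.2, 51.9 and 92.8 CPM in the controls (log2 fold change 1.75 ± 0.37, adjusted p = 0.00752). In 3 of 4 libraries it was thus far above every control, and imiquimod-ear 5 stood just under control 5. Tyms was at 54.4, 63.4, 52.5 and 25.4 CPM (1.53 ± 0.30, adjusted p = 0.00602), and imiquimod-ear 5 exceeded control 5, at 25 CPM, by a small margin. Cdc45 was at 47.2, 58.4, 41.1 and 23.2 CPM (1.54 ± 0.28, adjusted p = 0.0046), with no overlap with the controls. The same split appeared in Cdc6, at 66.1, 64.8, 61.7 and 27.1 CPM (1.35 ± 0.42, adjusted p = 0.0407), and in Mcm10, at 51.4, 52.4, 42.5 and 20.3 CPM (1.35 ± 0.36, adjusted p = 0.0212). Control 5 was above imiquimod-ear 5 for both of these genes.

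Helicase, clamp and ligase genes also had imiquimod-ear 5 as the lowest library of its group. The 6 MCM2-7 genes lay between 0.83 (Mcm7) and 1.00 (Mcm5). Mcm7 was at 251, 257, 240 and 132 CPM (SE 0.24, adjusted p = 0.026), Pcna at 398, 431, 408 and 213 CPM (0.79 ± 0.22, adjusted p = 0.0232) and Lig1 at 163, 175, 146 and 76.5 CPM (1.07 ± 0.27, adjusted p = 0.0151). In each, imiquimod-ear 1, 3 and 4 were above all controls and imiquimod-ear 5 was not. Rpa1 was at 212, 228, 195 and 156 CPM (0.41 ± 0.11, adjusted p = 0.0179), Orc2 at 60.1, 68.2, 61.6 and 44.2 CPM (0.45 ± 0.14, adjusted p = 0.0371) and Dnmt1 at 248, 317, 220 and 154 CPM (0.58 ± 0.18, adjusted p = 0.0378). Their changes were smaller, and imiquimod-ear 5 was again within the controls.

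The 3 smallest changes after ear imiquimod were in Orc5, Orc3 and Pold3. Orc5 was at 29.9, 30.7, 35.4 and 28.6 CPM against 26.6, 30.3 and 33.2 CPM in the controls (0.05 ± 0.09, adjusted p = 0.702). Orc3 was at 49.9, 52.3, 48.4 and 43.6 CPM (0.15 ± 0.08, adjusted p = 0.184) and Pold3 at 65.1, 63.5, 58.8 and 46.8 CPM (0.20 ± 0.11, adjusted p = 0.198). All 3 groups of values overlapped the controls. Pold1 was at 106, 115, 102 and 81.5 CPM (0.24 ± 0.13, adjusted p = 0.215) and Pold2 at 42.1, 45.1, 38.3 and 25.7 CPM (0.43 ± 0.15, adjusted p = 0.0578). Cdt1 did not pass at 71.0, 71.7, 77.2 and 51.2 CPM (0.33 ± 0.17, adjusted p = 0.195), although it had risen by 1.66 after dorsal imiquimod. Both comparisons share the 3 controls.

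**Figure D4:**
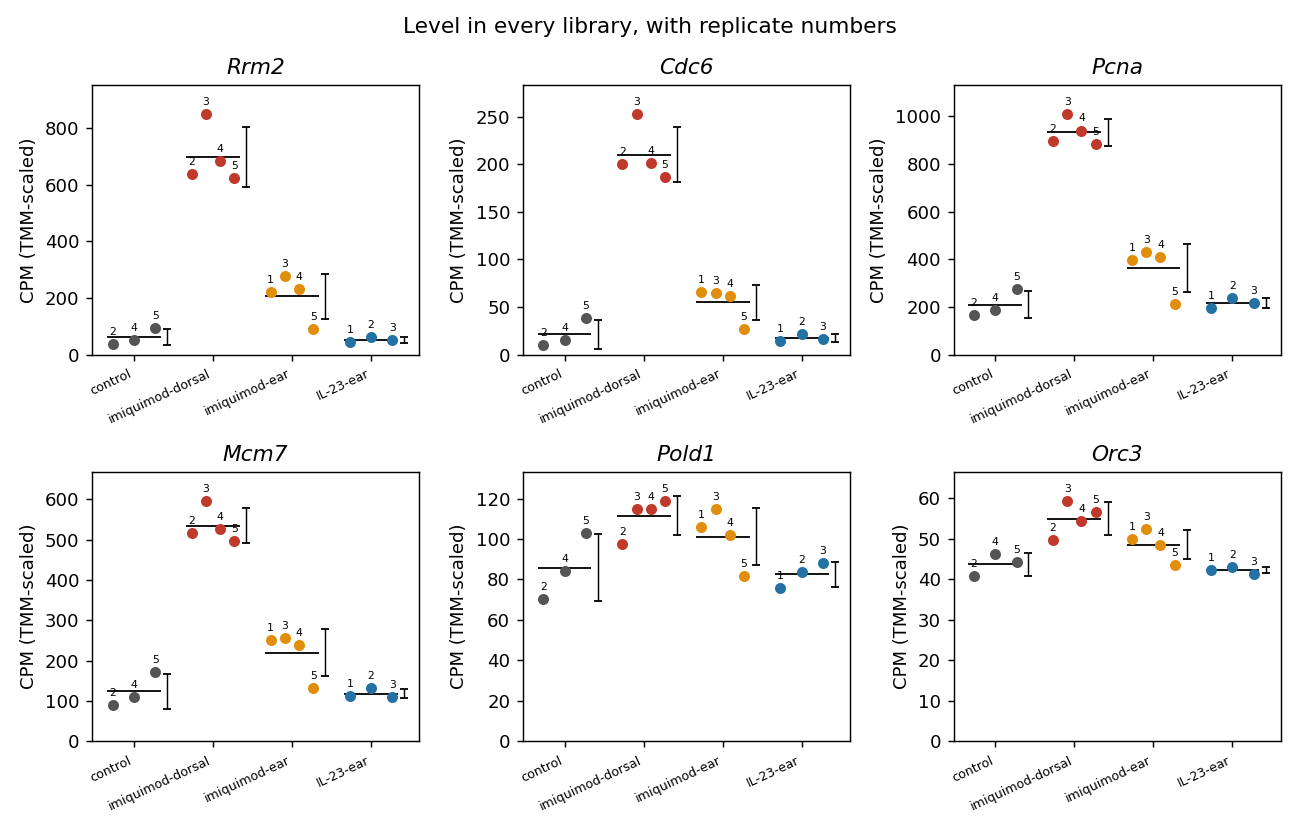
CPM of 6 genes in every library (points, numbered by replicate), with the group mean (line) and SD (bar) for 3 or 4 libraries. For Rrm2, Cdc6, Pcna and Mcm7 the imiquimod-dorsal points stand above all others and imiquimod-ear 5 lies beside the controls, while Pold1 and Orc3 differ little between groups.

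Of the 31 other replication genes, 22 rose after ear imiquimod and none fell, with a median of 0.74. Pclaf, a PCNA-binding factor, rose by 1.98 ± 0.32, Top2a by 1.55 ± 0.30 and Asf1b by 1.35 ± 0.26. Of 25 other nucleotide supply genes 11 rose and 2 fell, Samhd1 (-0.58 ± 0.12) and Tk2 (-0.41 ± 0.12). The marker lists differed from those after dorsal imiquimod. None of the 7 erythroblast markers passed, with sums of 695.6, 316.1, 1669 and 513.1 CPM against 457 to 625.4 CPM in the controls. All 6 plasma cell markers rose, 3 of 6 germinal center markers rose, and all 5 neutrophil progenitor markers rose. Of 5 B cell markers 1 fell, and no T cell, stem and progenitor or spleen marker passed. Over all 15159 tested genes, 2161 (14.3%) were called higher, of 3219 called in either direction. The few falls in these lists are thus not read as traits of the lists. The germinal center sums were 97.75, 170.1, 62.14 and 65.84 CPM, and the neutrophil progenitor sums 204.4, 71.41, 255.5 and 183.1 CPM. Imiquimod-ear 3, with the highest replication sum of its group, had the highest germinal center sum and the lowest erythroblast and neutrophil progenitor sums. The part of these cell types in the replication genes was not tested.

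**Figure D5:**
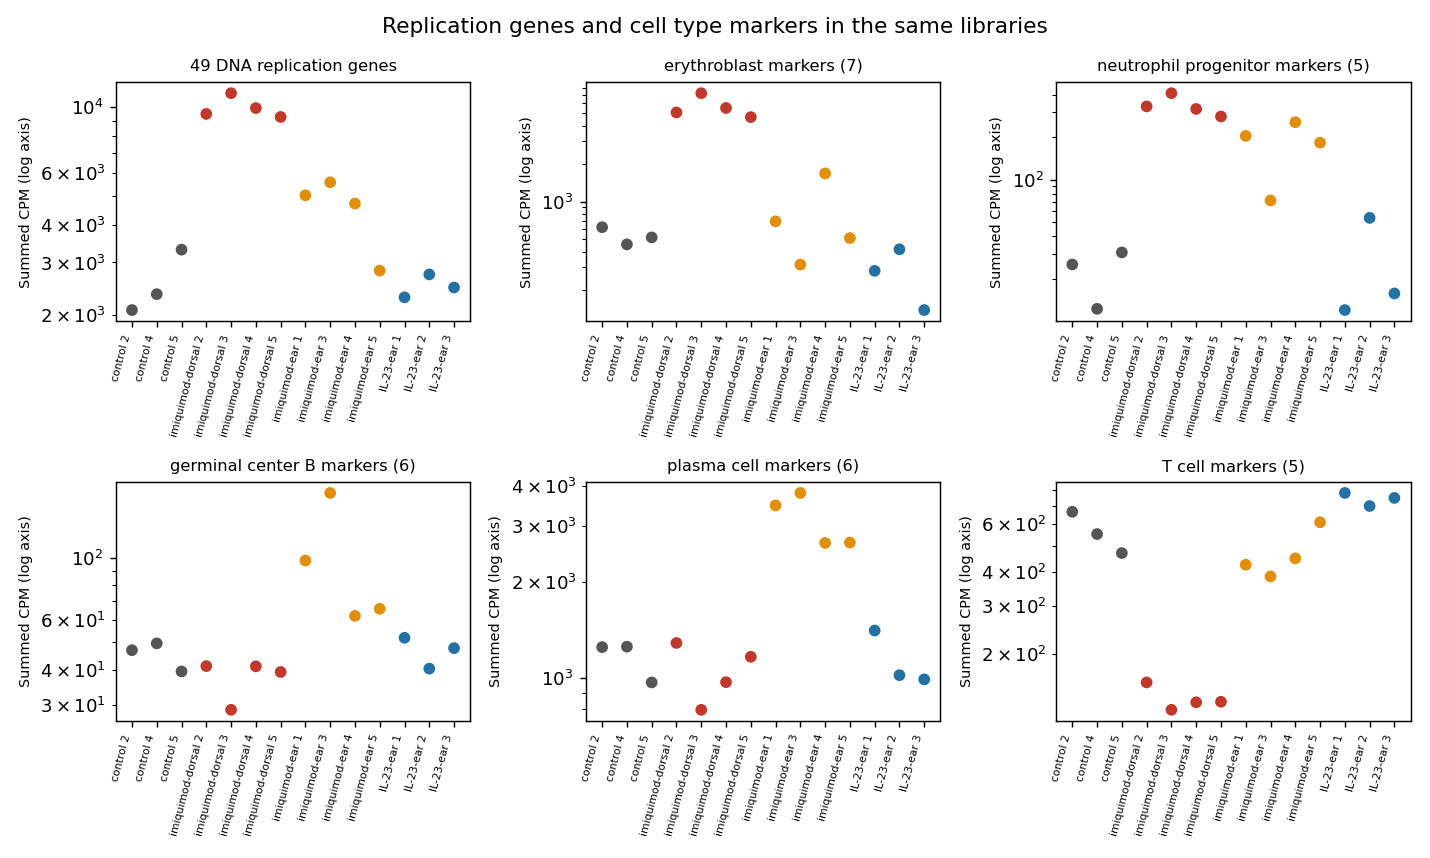
Summed CPM (log axes, a separate scale in each panel) of the 49 replication genes and of 5 lists of cell type markers in each of the 14 libraries. Erythroblast sums are highest in the imiquimod-dorsal libraries, at 4668 to 7227 CPM, and plasma cell sums are highest in the imiquimod-ear libraries, at 2652 to 3804 CPM, including imiquimod-ear 5.

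For the cytokine model, IL-23-ear was set against vehicle to ask whether it also changes spleen replication genes. None of the 49 passed the test in edgeR, where 0.0528% of all tested genes did, and 0 of the 49 had an unadjusted p under 0.05, against 8.61% of all tested genes. The count was also 0 with DESeq2 and limma-voom and in each alternative run. The log2 fold changes lay between -0.36 (Pole) and 0.25 (Rfc3), with a median of -0.05, 34 below 0 and 15 above. The intervals limit the change more tightly for some genes than for others. For Gins4 the 95% interval was -0.09 to 0.29 and for Orc3 -0.23 to 0.13, but for Cdc6 it was -1.28 to 0.64 and for Rrm2 -1.04 to 0.59. Changes within these intervals are not excluded by the data.

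Single values showed the same picture. Rrm2 read 44.0, 62.5 and 50 CPM after IL-23, Cdc6 13.9, 21.6 and 16.3 CPM, and Pcna 196, 238 and 218 CPM. For each of these the values fell within the range of the controls. Orc2 read 40.6, 47.9 and 45.6 CPM, Orc3 42.3, 43 and 41.4 CPM and Orc5 28.3, 29.3 and 27.2 CPM. Cdt1 read 46.7, 52.8 and 59.2 CPM, Mcm7 112, 132 and 111 CPM, Mcm10 14.7, 18.5 and 14.6 CPM and Cdc45 13.2, 17 and 14.8 CPM. These origin and helicase genes also stayed within the range of the controls. Pold1 read 76, 83.9 and 88.1 CPM, Pold2 27.2, 27.6 and 27.7 CPM and Pold3 48.1, 55.4 and 49.5 CPM. Lig1 read 57.9, 72.6 and 59.3 CPM, Dnmt1 144, 159 and 146 CPM and Tyms 16.9, 21.4 and 19.4 CPM, again within the range of the controls. Rpa1, at 140, 143 and 134 CPM, lay just below the controls, by a margin smaller than its own spread (-0.10 ± 0.12, adjusted p = 0.869). Control 5 was above every IL-23-ear library for 44 of the 49 genes (27.6% of all tested genes). Leaving it out moved the median from -0.05 to 0.19, and leaving out control 2 moved it to -0.19, with no gene passing in either case. Within the IL-23-ear group the median coefficient of variation of the 49 genes was 10.8%, against 9% over all genes. No gene of the 31 other replication genes or the 25 other nucleotide supply genes passed either. None of the 7 erythroblast, 5 neutrophil progenitor, 6 germinal center, 6 plasma cell, 5 T cell, 5 B cell, 4 stem and progenitor or 8 spleen markers passed.

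The imiquimod sites were compared directly to test whether the ear response differs from the dorsal one. After ear imiquimod 45 of the 49 genes were lower than after dorsal imiquimod (24.5% of all tested genes) and none was higher, with a median log2 fold change of -1.12. The groups did not overlap for 44 (23.1% of all tested genes). The largest differences were in Cdc6 (-1.94 ± 0.38, adjusted p = 0.0015), Rrm2 (-1.76 ± 0.33, adjusted p = 0.000992) and Orc1 (-1.68 ± 0.32, adjusted p = 0.0011). Orc3 (-0.18 ± 0.07, adjusted p = 0.0572), Rfc2 (-0.30 ± 0.12, adjusted p = 0.0558), Pold1 (-0.14 ± 0.12, adjusted p = 0.343) and Pold2 (-0.15 ± 0.14, adjusted p = 0.398) did not pass. The count was 42 to 47 in all alternatives run, and 44 without imiquimod-ear 5. Among the other replication genes 24 of 31 were lower, while Pclaf, at 173, 244, 150 and 80.4 CPM after ear imiquimod and 177, 188, 202 and 191 CPM after dorsal imiquimod, did not pass (-0.23 ± 0.28, adjusted p = 0.524). The erythroblast markers were lower by a median of -2.98 and the plasma cell markers higher by 1.57 in the same comparison. Skin area, dose of cream and site differ together between these groups and cannot be told apart.

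Both ear models were compared to ask whether IL-23 and imiquimod at one site differ. After IL-23, 41 of the 49 genes were lower than after ear imiquimod (10.2% of all tested genes), with a median of -0.94, and the groups did not overlap for 33 (12.5% of all tested genes). Rrm2 differed by -1.98 ± 0.37 (adjusted p = 0.00521), Clspn by -1.76 ± 0.33 (adjusted p = 0.00531) and Cdc6 by -1.67 ± 0.43 (adjusted p = 0.0223). Orc2, Orc3, Orc5, Cdt1, Rfc3, Pold1, Pold2 and Pold3 did not pass, a list that differs from that of ear imiquimod against control in having Orc2 in place of Rfc1. The count was 15 without IL-23-ear 1 and without IL-23-ear 3, 25 without imiquimod-ear 1 and 24 without imiquimod-ear 3. It was 28 when only these groups entered the fit and 46 without imiquimod-ear 5. Calls over all genes went from 2623 to 1326, 1101, 1396, 1654, 1247 and 4463 in the same fits. Against dorsal imiquimod, all 49 genes were lower after IL-23 (30% of all tested genes), with a median of -2.08 and no overlap for 49 (31.7% of all tested genes). Ear imiquimod lasted 5 days with daily cream and IL-23 lasted 7 days with 4 injections, so agent, route and duration cannot be told apart.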

How the data were processed

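Poly(A) RNA of 14 whole spleens was sequenced in paired reads of 150 bases without strand, per the labels' protocols, which put all samples in 1 batch. The authors deposited 1 table of raw read counts per gene, and per the submitters' processing notes, which give no roles, the build was GRCm39 and the tools were featureCounts 2.0.3, HISAT2 2.2.1, fastp 0.23.2, DESeq2 1.38.3 and StringTie 2.2.1. The treatment of multi-mapping reads is not given in the sources used here. In the table of 22740 entries, 624 loci without a gene name, with 0.484% to 0.674% of the counts, entered neither the totals nor the tests.

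Counts were tested with the robust quasi-likelihood F test of edgeR 4.0.16 (R 4.3.3) with TMM scaling, after filterByExpr with a minimum count of 10. A single model held the 14 libraries (10 residual degrees of freedom, biological coefficient of variation 18.7%). Benjamini-Hochberg adjustment ran over 15159 genes, the threshold was 0.05, and every adjusted p of a gene is from this test. Log2 fold changes carry their SE, intervals are at 95%, and CPM per kb divides by the length of the canonical GENCODE transcript. Replicates differed by more than sampling noise. The series' design text calls them biological replicates. The floor of 3 counts is for counting error alone, because PCR copies of a molecule were not marked.

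The 49 members, the 10 lists and the alternatives were chosen with earlier results of these data known. Values in every library are given for the member with the highest mean CPM of each of the 10 role groups and for the 3 largest and 3 smallest changes against control after dorsal and after ear imiquimod. The 3 largest and 3 smallest changes of the other replication genes after dorsal imiquimod were named too. Other genes given with their values (among them Orc1, Pole3, Pole4, Pold4, Alas2, Clspn, Samhd1, Pclaf, Klf1 and Elane) were chosen after their values were seen. Values of some single genes of the lists are not reported here. Promoters were read from GRCm39 by the GENCODE annotation. Alternatives were DESeq2 1.42.0, limma-voom (limma 3.58.1), 3 other scalings, haemoglobin and immunoglobulin genes left out, other filters, fits of 2 groups, the replicate number as a block, and leaving out each library.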

Additional observations from a re-analysis of the deposited data

Results flagged for a closer look

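In the imiquimod-ear group, imiquimod-ear 5 was far below the other 3 libraries for Cdc6, Mcm7 and Pcna. Its gap to the nearest library was 0.887, 0.864 and 0.849 of the group's range for these genes, above Dixon's 95% critical value for 4 samples. Over all 49 genes this library was so placed for 8, and imiquimod-dorsal 3 was so placed as the highest of its group for 3. The share of all tested genes so placed was not computed, so these counts have no background to be set against. The control and IL-23-ear groups, and with them control 5, were not put to this rule. Chance gives such a gap in about 1 in 20 groups, and the genes of 1 library are not independent of each other.

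The responses differed between treatments by direct tests. After ear imiquimod 45 of the 49 genes were lower than after dorsal imiquimod, against 24.5% of all tested genes. After IL-23 in the ear 41 were lower than after ear imiquimod (10.2% of all tested genes). Against dorsal imiquimod 49 were lower after IL-23 (30% of all tested genes). The count of 41 ranged from 15 to 46 when 1 library at a time was left out.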

How the results depend on the processing

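Against control, the count after dorsal imiquimod was 46 to 49 and the count after IL-23 was 0 in all alternatives run. Without 1 library at a time, the count after ear imiquimod was 7 to 45, that of IL-23 against ear imiquimod 15 to 46, that of ear against dorsal imiquimod 44 to 47, and that of IL-23 against dorsal imiquimod 48 to 49. Without imiquimod-ear 1 or 3 the first was 23 or 21, and without control 2 it was 8. It was 4 when only the ear imiquimod and control libraries entered the fit. The cause of these drops beyond the fewer samples was not tested. The median of IL-23 against dorsal imiquimod moved from -2.08 to -1.88 by upper-quartile scaling and to -1.80 by library totals, and Orc3 turned from 0.33 to -0.01 after dorsal imiquimod by library totals. Scaling also moved the split of calls over all genes. Of ear against control calls, 2161 of 3219 were higher by TMM, 1730 of 3302 by the upper quartile and 1439 of 3214 by library totals. Of ear against dorsal calls these were 3528 of 7237, 5485 of 8063 and 6513 of 8677. Of IL-23 against dorsal calls they were 4107 of 8651, 5960 of 9275 and 6752 of 9633.

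The replicate numbers showed no clear pairing of the libraries. Of 13 same-numbered pairs 1 had a correlation of deviations over 0.1, and the range was -0.241 to 0.183. Pairs of unlike number ran from -0.231 to 0.218. With 3 or 4 libraries in a group, these correlations cannot exclude that same-numbered libraries are paired. With the replicate block the count after ear imiquimod was 0 and that of IL-23 against ear imiquimod 18. Over all genes, ear imiquimod against control had 3219 calls, 1126 in a fit of these groups alone and 311 with the block. IL-23 against ear imiquimod had 2623 calls, and 1247 and 1261 in the same fits. IL-23 against control had 8 calls, 132 by DESeq2 and 14 by limma-voom or the stricter filter, and 0 with each of the other 3 scalings, without a filter, in a fit of these groups alone and with the block. Pold1 lost its call after dorsal imiquimod with the block (0.35, adjusted p = 0.058). All 49 genes were far above the floor of 3 counts. For IL-23 against control, the intervals of single genes reached from -1.28 to 0.88.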
